A study of Mus musculus with 6 samples.

Results

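The genes described here are 10 mouse genes whose enzymes, or in 1 case a helper protein, make or break down prostaglandins and leukotrienes: Alox5, Alox5ap, Lta4h, Ltc4s, Alox15, Ptgs1, Ptgs2, Ptges, Hpgd and Hpgds. They were taken by name as a pathway, with earlier results of these data known, and 10 of 10 were found among the 55487 genes of the count table. The table holds RNA-seq libraries of neutrophils sorted by the surface protein Ly6G from digested mouse lungs. Mutant libraries (n = 3) came from Mrp8-Cre;TGFbR2-fl/fl mice, in which a Cre-EGFP transgene under the S100A8 (Mrp8) promoter is meant to delete loxP-flanked Tgfbr2, the type II TGF-beta receptor gene. The wt libraries (n = 3) came from Cre-negative littermates that carry the same loxP-flanked alleles, so mutants differ from wt in the transgene as well as in the deletion. The S100A8 promoter is active in neutrophils and their precursors. The design text gives an N of 3 per group but no label ties a library to 1 mouse. The tests below therefore set group differences against the spread of these libraries only, which is not known to be a spread of mice. The labels state neither age nor sex.

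Prostaglandins and leukotrienes are lipid signals made on demand from arachidonic acid, a fatty acid that phospholipases cut from membranes. In the lipoxygenase branch 5-lipoxygenase works with its activating protein to make an unstable leukotriene, which is turned either into LTB4, a strong attractant of neutrophils, or into cysteinyl leukotrienes, which contract airways and make vessels leak. In the cyclooxygenase branch the constitutive Ptgs1 enzyme or the inducible Ptgs2 enzyme makes a prostaglandin precursor, which separate synthases turn into prostaglandins such as PGE2 and PGD2, prostacyclin or thromboxane, and Hpgd inactivates prostaglandins. Neutrophils are known as a source of LTB4 and, once activated, of PGE2.

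RefSeq gives the 250 bases before the annotated start for 8 of the 10 genes (build GRCm38.p6). Those of 4 genes are shown, because they comprise the 3 highest genes of the set that the table holds and Ptgs1, the low-level counterpart of Ptgs2. Each reads 5′ to 3′ along the gene's strand: Ptgs2 on chr1:150099781-150100030 (plus strand), Ptgs1 on chr2:36230176-36230425 (plus), Alox5 on chr6:116461179-116461428 (minus) and Hpgd on chr8:56294302-56294551 (plus). Capitals mark matches on either strand to the GC box GGGCGG, the C/EBP palindrome TTGCGCAA or the SMAD box GTCTG.
Ptgs2: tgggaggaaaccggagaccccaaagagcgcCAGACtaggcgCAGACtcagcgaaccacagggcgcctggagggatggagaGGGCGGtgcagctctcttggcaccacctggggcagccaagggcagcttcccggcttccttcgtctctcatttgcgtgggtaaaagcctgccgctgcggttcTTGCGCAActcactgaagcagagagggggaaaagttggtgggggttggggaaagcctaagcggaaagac
Ptgs1: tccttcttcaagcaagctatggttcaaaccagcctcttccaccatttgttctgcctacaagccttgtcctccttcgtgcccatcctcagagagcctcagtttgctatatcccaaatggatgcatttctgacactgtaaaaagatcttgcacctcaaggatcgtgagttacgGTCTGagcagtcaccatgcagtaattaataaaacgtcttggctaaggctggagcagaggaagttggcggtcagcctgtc
Alox5: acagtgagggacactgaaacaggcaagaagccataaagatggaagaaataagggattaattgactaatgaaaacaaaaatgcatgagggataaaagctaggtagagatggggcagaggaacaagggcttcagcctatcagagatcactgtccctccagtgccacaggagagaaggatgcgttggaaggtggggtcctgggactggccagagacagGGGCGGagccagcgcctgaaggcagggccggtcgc
Hpgd: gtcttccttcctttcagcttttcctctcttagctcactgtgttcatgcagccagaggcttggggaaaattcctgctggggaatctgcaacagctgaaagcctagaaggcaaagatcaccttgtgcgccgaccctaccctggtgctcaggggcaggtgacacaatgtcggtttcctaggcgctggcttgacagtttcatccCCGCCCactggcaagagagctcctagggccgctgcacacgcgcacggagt
The Ptgs2 window held 1 C/EBP palindrome, 1 GC box and 2 SMAD boxes, and the Ptgs1 window held 1 SMAD box. Alox5 and Hpgd each held 1 GC box. Of all 32851 windows of this length in the RefSeq table, 0.164% held the C/EBP palindrome, 32.7% the GC box and 42.2% the SMAD box. No match in the 8 windows was found for the TATA box TATAAA (12.4% of all windows), the E-box CACGTG (6.02%), the cAMP response element core ACGTCA (6.47%) or the AP-1 site TGANTCA (6.75%), where N is any base. All searches covered both strands, and no 2 matches overlapped in the windows shown. The share of G and C was 61.6% for Ptgs2, 48% for Ptgs1, 52.8% for Alox5 and 56.8% for Hpgd, against a median of 52.4% over all windows. These are matches of letters only. The windows end at the annotated start, so a motif beyond it or further upstream was not searched for. An absent match therefore does not show that a promoter lacks the motif.

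Library totals ran from 30403494 to 35906780 counts, and 15774 genes passed the filter on low counts, all 10 of the set among them. A gene at 3 counts stood at 0.0829 to 0.102 CPM (counts relative to the TMM-adjusted library size), which covers counting error only. Tgfbr2 was at 176, 205 and 181 CPM in mutants, against 186, 185 and 201 CPM in wt, but its count pools all exons and so does not check a deletion of part of the gene. Of the neutrophil markers, Csf3r averaged 7969 ± 242 CPM in mutants, against 8505 ± 638 CPM in wt, and S100a8 averaged 1149 ± 310 in mutants against 1709 ± 36.8 CPM in wt (SD, n = 3 each, adjusted p = 0.405 by edgeR). Of 10 neutrophil markers 8 had a negative log2 fold change (median -0.16). For 2 of the 10, S100a8 and Cxcr2, all mutant libraries were below all wt libraries, as for 6.21% of all tested genes. Cxcr2 was at 1991, 2136 and 1946 CPM in mutants, against 2623, 2475 and 2605 CPM in wt (adjusted p = 0.294, edgeR). Ly6g, the gene of the sorted protein, was at 14.4 to 33.6 CPM in mutants and 19.3 to 35.2 CPM in wt. For 3 lists of other lung cells each mutant library exceeded each wt library, with a two-sided exact permutation p of 0.1 each, the smallest that 3 against 3 allows. The summed level of 12 alveolar macrophage markers was 667 to 1324 CPM in mutants against 381 to 600 CPM in wt, and that of 12 epithelial markers 588 to 1065 in mutants against 277 to 574 CPM in wt. For 10 fibroblast markers the sum was 2565 to 3633 in mutants against 2198 to 2565 CPM in wt, the nearest libraries being less than 1 CPM apart. In size, the macrophage and fibroblast sums each leaned on 1 gene. In direction, 12 of 12 macrophage, 9 of 10 fibroblast and 11 of 12 epithelial markers had a positive log2 fold change. Over all 15774 tested genes, 7991 were positive. Chil3 was the largest macrophage marker, at 372 to 999.6 CPM in mutants and 162 to 319 CPM in wt. Gsn was the largest fibroblast marker, at 2055 to 2856 CPM in mutants and 1766 to 2131 CPM in wt, with groups that overlapped. Sftpc, the largest epithelial marker, was at 192 to 446 CPM in mutants and 93.8 to 263 CPM in wt, also overlapping. The part of other lung cells in the values below was not tested. In bulk libraries, fewer cells of a type and less RNA per cell cannot be told apart.

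The genes differed widely in level in these libraries of sorted cells, and the order at the top was the same in every library. All cells were digested and sorted before RNA was taken, so levels in the intact lung were not measured. Per length, in TPM (counts divided by exon length and scaled to the same sum in every library), Ptgs2 was the highest, at 4465 ± 792 TPM in mutants, against 3891 ± 279 TPM in wt (SD, n = 3 per group), which ranks 30th of the 15774 tested genes by mean TPM. Alox5ap followed at 673 ± 43.4 in mutants against 711 ± 55.3 TPM in wt, Alox5 at 463 ± 36.1 in mutants against 509.9 ± 29.8 TPM in wt, and Hpgd at 279 ± 9.09 in mutants against 316 ± 50.6 TPM in wt. Each of these 4 was above the next in 6 of 6 libraries, with no overlap of their ranges. Lta4h, at 37.4 ± 2.38 in mutants against 34.1 ± 4.97 TPM in wt, and Ptgs1, at 37.2 ± 10.2 in mutants against 32.2 ± 4.60 TPM in wt, could not be ordered: Lta4h was higher in 4 of 6 libraries and their ranges overlapped. Ptges stood at 4.83 ± 1.33 in mutants against 5.23 ± 0.818 TPM in wt. Ltc4s, Alox15 and Hpgds were the lowest of the set, with mean levels of 1.92, 0.647 and 0.361 TPM over the 6 libraries. Ltc4s was above Alox15 in 6 of 6 libraries although their ranges overlapped, and Alox15 and Hpgds were not separated, each being the higher in 3 of 6 libraries.

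**Figure D1:**
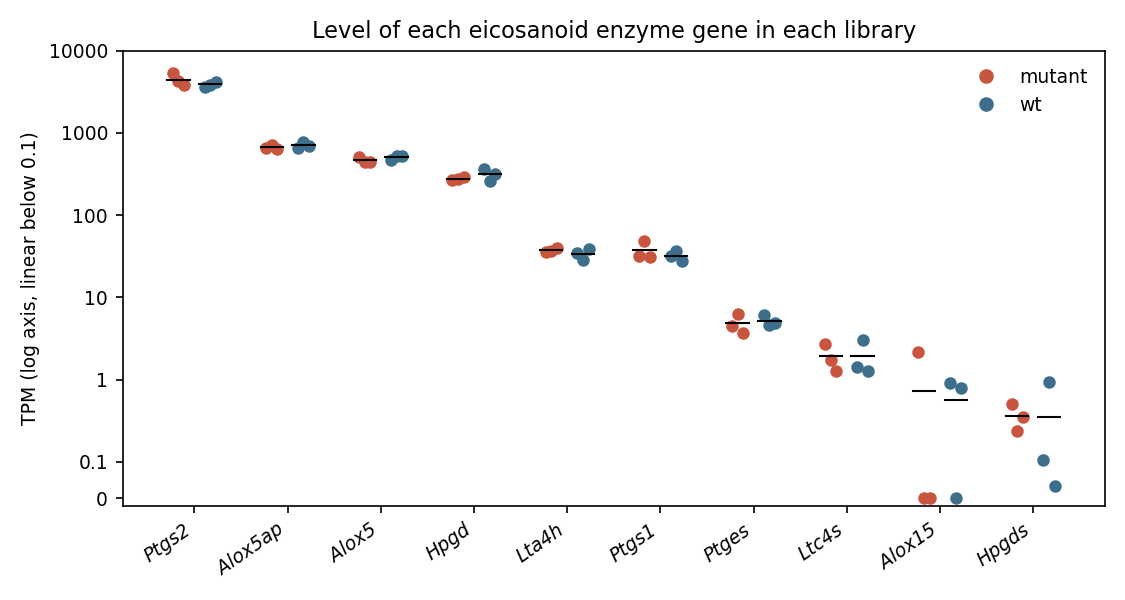
TPM of each gene in each library, ordered by mean level, on a log axis that is linear below 0.1; points are libraries (mutant left, wt right) and black lines are group means. Ptgs2 stands at 3619 TPM or more in every library, and Alox15 is at 0 in 3 of them.

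No gene of the set passed the test between mutants and wt. By edgeR's quasi-likelihood test with Benjamini-Hochberg adjustment over all tested genes, 0 of 10 had an adjusted p under 0.05, against 0.00634% of all tested genes (1 gene), and 0 of 10 had an unadjusted p under 0.05, against 6.73%. DESeq2 called 0 of 10, against 0.983% of all genes, and limma-voom 0 of 10, against 0.00634%. The groups overlapped for all 10, while they did not overlap for 13.0% of the tested genes (higher in mutants for 6.82% and lower for 6.21%). Log2 fold changes (mutant over wt) were positive for 5 genes and negative for 5, with a median of 0.0032, against 0.0054 over all tested genes. The 95% intervals lay inside a 1.5-fold change either way for 5 genes (Alox5, Alox5ap, Lta4h, Ptgs2 and Hpgd) and inside a 2-fold change for 7, with Ptgs1 and Ptges added. Those of Ltc4s, Alox15 and Hpgds were wider, so that a 2-fold difference could not be detected for them in these libraries.

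**Figure D2:**
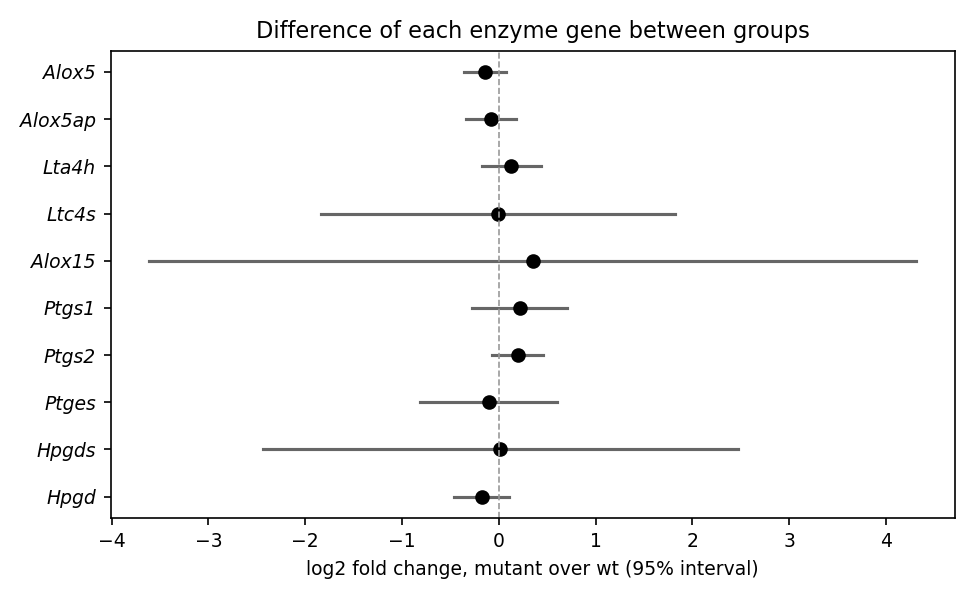
Log2 fold change of each gene, mutant over wt, with its 95% interval from edgeR; the dashed line is no difference. All 10 intervals include 0, and those of Ltc4s, Alox15 and Hpgds are the widest.

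In the lipoxygenase branch, Alox5 (ENSMUSG00000025701.12, chromosome 6, 116410077 to 116461178, minus strand, GRCm38 as are the gene positions below), which encodes 5-lipoxygenase, was at 598, 561 and 516 CPM in mutants, against 571, 649 and 631 CPM in wt. The lowest 2 values were those of mutants, but mutant replicate 1 lay above wt replicate 1. Its log2 fold change was -0.14 ± 0.10 (SE), with an adjusted p of 0.885 by edgeR. Alox5ap (ENSMUSG00000060063.9, chromosome 5, 149264767 to 149288153, plus strand), whose membrane protein FLAP hands arachidonic acid to 5-lipoxygenase, was at 269, 317 and 259 CPM in mutants, against 275, 327 and 290 CPM in wt. Its libraries interleaved, and the log2 fold change was -0.08 ± 0.11 (adjusted p = 0.968, edgeR). The antisense gene Gm19719 shares 189 exon bases with Alox5ap and had 12 to 44 counts in mutants and 35 to 59 in wt, where Alox5ap itself had 8368 to 9898 counts over the 6 libraries.

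The genes that act on the product of 5-lipoxygenase were far apart in level. Lta4h (ENSMUSG00000015889.8, chromosome 10, 93453411 to 93484875), which encodes the hydrolase that makes LTB4, was at 62.3, 69.2 and 69.4 CPM in mutants, against 62.3, 52.3 and 68.9 CPM in wt. The lowest value was that of wt replicate 2, the other 5 libraries lay close together, and the log2 fold change was 0.13 ± 0.14 (adjusted p = 0.946, edgeR). Ltc4s (ENSMUSG00000020377.15, chromosome 11, 50236461 to 50238616), which encodes the synthase that starts the cysteinyl branch, had 29, 16 and 12 counts in mutants and 13, 28 and 12 counts in wt. The highest libraries were 1 mutant and 1 wt. Its log2 fold change was -0.0093 ± 0.82 with an interval of -1.84 to 1.82 (adjusted p = 0.999, edgeR). Per length, Lta4h exceeded Ltc4s in every library, with a lowest Lta4h value of 28.7 TPM and a highest Ltc4s value of 3.05 TPM. Gm26542, antisense to Ltc4s and sharing 268 exon bases with it, had 17, 19 and 14 counts in mutants and 6, 10 and 3 in wt. The libraries do not mark strand, so reads of this pair cannot be told apart where they overlap, and the Ltc4s level is uncertain.

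Alox15 (ENSMUSG00000018924.6, chromosome 11, 70344152 to 70352031) encodes the 12/15-lipoxygenase of mice, which is known from eosinophils and resident macrophages and takes part in making pro-resolving lipids. It had 56, 0 and 0 counts in mutants and 20, 0 and 18 in wt. The 0 values allow at most 0.102 CPM in mutant replicate 2, 0.0923 CPM in mutant replicate 3 and 0.0991 CPM in wt replicate 2. Reads were thus found in 3 libraries and not in the other 3, both groups being among each, and the mutant mean rested on replicate 1. The log2 fold change was 0.35 ± 1.78 (adjusted p = 0.997, edgeR), and without that library the mutants had 0 counts. Of the eosinophil markers, Epx had 0 counts in every library, Prg2 and Ear6 each had 2 counts in 1 library, and Il5ra had 0 to 43 counts. Ccr3 was at 4.12 to 8.82 CPM in mutants and 3.47 to 8.59 CPM in wt. Siglecf, which alveolar macrophages also express, was at 88.4 ± 20.6 CPM in mutants, against 80.1 ± 1.16 CPM in wt (SD, n = 3 per group).

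In the cyclooxygenase branch, Ptgs2 (ENSMUSG00000032487.8, chromosome 1, 150100031 to 150108227, plus strand) encodes COX-2, the enzyme that inflammatory stimuli induce. It was at 7069, 5987 and 4972 CPM in mutants, against 4843, 5304 and 5597 CPM in wt. Mutant replicates 1 and 2 were the highest 2 libraries, and mutant replicate 3 lay among the wt libraries. The log2 fold change was 0.20 ± 0.12, the 95% interval ran from -0.07 to 0.46, and edgeR gave an adjusted p of 0.851. Without mutant replicate 1 it was 0.065. Ptgs1 (ENSMUSG00000047250.13, chromosome 2, 36230426 to 36252272, plus strand), which encodes COX-1, the constitutive enzyme that platelets and many other cells use, was at 35.9, 58.8 and 33.9 CPM in mutants, against 35.8, 43.0 and 31.8 CPM in wt. Replicate 2 of the mutants stood apart, with a log2 fold change of 0.22 ± 0.22 (adjusted p = 0.944, edgeR) that was -0.083 without it. Platelet markers did not share an order with it: in that library Itgb3, the most abundant of them, was the lowest of the 6 at 27.9 CPM, while Itga2b at 9.72 CPM and Gp9 at 1.05 CPM were the highest of the 6. Pf4 was at 0.0660 to 0.887 CPM and Gp1bb at 0 in all libraries. The TEC transcript Gm43621 shares 148 exon bases with Ptgs1 and had 3 to 18 counts in mutants and 0 to 8 in wt.

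Nearly all cyclooxygenase transcripts were Ptgs2. Per length, Ptgs2 made up 99.4%, 98.9% and 99.2% of Ptgs1 plus Ptgs2 in mutants and 99.1%, 99.1% and 99.3% in wt. The mean share was 99.2 ± 0.278% in mutants, against 99.2 ± 0.145% in wt (SD over 3 libraries each), a difference of -0.02 percentage points with a p of 1 in a two-sided exact permutation test, in which 3 libraries against 3 cannot go below 0.1. As a ratio of TPM, Ptgs2 exceeded Ptgs1 by 86.4 to 167 times in mutants and 105 to 149 times in wt. Of the motifs marked in the 2 promoter windows above, the C/EBP palindrome and the GC box were found in that of Ptgs2 and not in that of Ptgs1. The SMAD box was found in both, and the GC box also in the window of the low gene Ptges. The part of such matches in the levels was not tested.

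A pair of noncoding genes lies beside Ptgs2. Their values were looked up after those of Ptgs2 were seen, and both genes were named here with their own values known. Ptgs2os2, a lincRNA gene on the minus strand that lies 50816 bases beyond the end of Ptgs2, was at 66.4, 80.2 and 69.0 CPM in mutants, against 46.1, 65.7 and 53.3 CPM in wt. The groups did not overlap, but mutant replicate 1 and wt replicate 2 differed by less than 1 CPM, and the adjusted p was 0.667 by edgeR, with a log2 fold change of 0.38 ± 0.15. Ptgs2os, which lies 68 bases before the start of Ptgs2, was at 13.4, 9.35 and 10.1 CPM in mutants, against 10.8, 14.4 and 9.97 CPM in wt. Among the 6909 other genes that averaged 10 CPM or more, those most like Ptgs2 over the 6 libraries, by Pearson's r of log2(CPM + 1), were Ccdc97 (r = 0.99, rho = 0.94), Btg2 (r = 0.99, rho = 1) and Rffl (r = 0.98, rho = 0.94). The 6 libraries share their preparation, and the 3 genes are the top of many, so the values are a description. Btg2, an antiproliferative early response gene, was at 7692, 6543 and 5293 CPM in mutants, against 4976, 5623 and 6282 CPM in wt.

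Of the synthases downstream of the cyclooxygenases, the 2 in the set were low. Ptges (ENSMUSG00000050737.13, chromosome 2, 30889471 to 30929863), the inducible PGE2 synthase that is known to act with COX-2, was at 5.17, 7.62 and 4.09 CPM in mutants, against 7.06, 5.38 and 5.69 CPM in wt. The highest and the lowest library were both mutants, and the log2 fold change was -0.10 ± 0.32 (adjusted p = 0.995, edgeR). Of the other enzymes that can make PGE2, Ptges3 was at 27.2 ± 2.51 CPM in mutants, against 27.1 ± 4.06 CPM in wt (SD, n = 3 per group). Hpgds (ENSMUSG00000029919.5, chromosome 6, 65117293 to 65144908), the PGD2 synthase of mast cells and some other blood cells, had 34, 14 and 21 counts in mutants and 6, 54 and 2 counts in wt. The wt libraries held both the highest and the lowest counts, and the log2 fold change was 0.016 ± 1.10 with an interval of -2.44 to 2.47 (adjusted p = 0.999, edgeR). The mast cell genes Tpsb2, Tpsab1 and Fcer1a were at 0 in every library and Cpa3 was at 0.305 to 0.769 CPM in mutants and 0.561 to 0.723 CPM in wt. Cma1 was at 0.166, 0 and 0 CPM in mutants and 0.591, 0.462 and 1.75 CPM in wt, with groups that did not overlap (adjusted p = 0.593, edgeR). All 4 tested markers of this list had a negative fold change, and their part in the Hpgds values was not tested. Kit and Gata2, which other cells also use, were at 96.5 ± 11.9 and 47.2 ± 6.74 CPM in mutants, against 101 ± 10.04 and 61.4 ± 15.4 CPM in wt.

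Hpgd (ENSMUSG00000031613.9, chromosome 8, 56294585 to 56321043, plus strand) encodes the dehydrogenase that inactivates prostaglandins, and in lung it is known from epithelial and endothelial cells. It was at 132, 145 and 138 CPM in mutants, against 179, 132 and 157 CPM in wt. The 2 highest libraries were wt, while wt replicate 2 lay within the mutants. Its log2 fold change was -0.18 ± 0.13 (adjusted p = 0.895, edgeR). Slco2a1, the transporter that brings prostaglandins into cells for Hpgd to act on, was at 123, 126 and 107 CPM in mutants, against 162, 124 and 150 CPM in wt. For both genes wt replicate 2 was the lowest wt library, and the adjusted p of Slco2a1 was 0.728 (log2 fold change -0.29 ± 0.13, edgeR). Among wt libraries the summed endothelial markers were also lowest in replicate 2. Among mutants, replicate 2 was the highest library for Hpgd and Slco2a1 but the lowest for that sum. That sum was 1461, 1277 and 1558 CPM in mutants, against 1576, 1422 and 1751 CPM in wt, and 10 of 10 markers were negative (median log2 fold change -0.14). The endothelial genes Cldn5 and Vwf were at 366 ± 49.5 and 162 ± 15.4 CPM in mutants, against 400 ± 16.0 and 183 ± 25.05 CPM in wt (SD, n = 3 per group). Their part in the Hpgd and Slco2a1 values was not tested. Epithelial markers went the other way, with 11 of 12 positive and a median of 0.95.

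**Figure D3:**
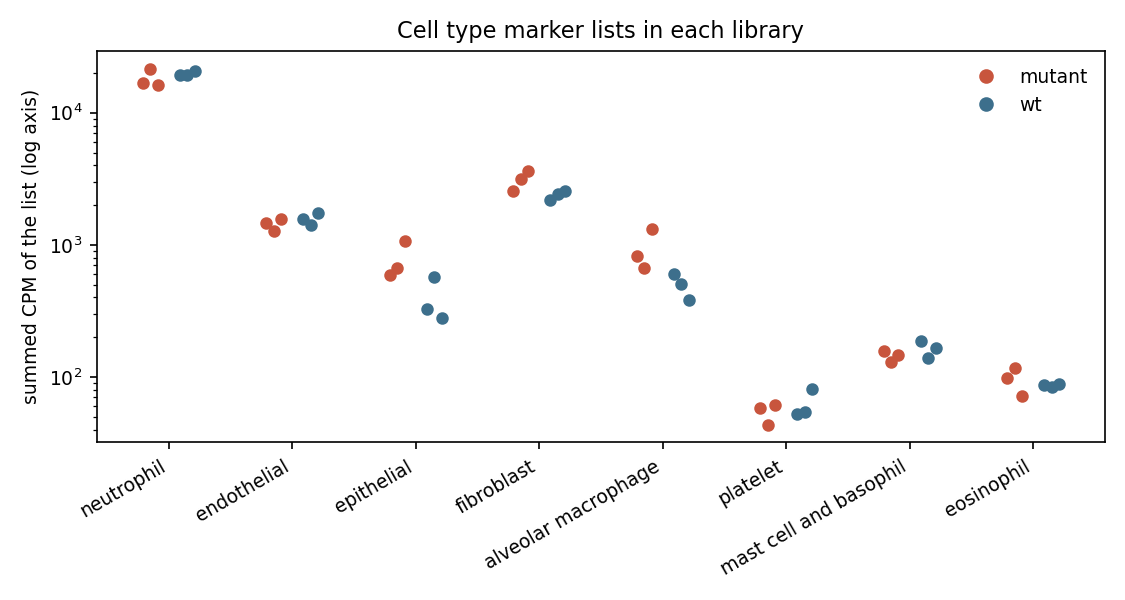
Summed CPM of each marker list in each library on a log axis (mutant left, wt right). Neutrophil markers are the highest list, endothelial markers lie between 1277 and 1751 CPM in all libraries, and the epithelial and alveolar macrophage lists are higher in each mutant library than in any wt library.

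The rest of the pathway was described from 7 lists with 64 genes, of which 53 were tested. By edgeR 0 of the 53 had an adjusted p under 0.05, an unadjusted p under 0.05 was found for 4 with positive and 2 with negative fold changes (3.51% and 3.22% of all tested genes), and limma-voom called 0. DESeq2 called 1 of the 53, Ptgis, against 0.983% of all genes. The groups did not overlap for 10 of the 53, 3 of them higher and 7 lower in mutants, against 13.0% of all tested genes.

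**Figure D4:**
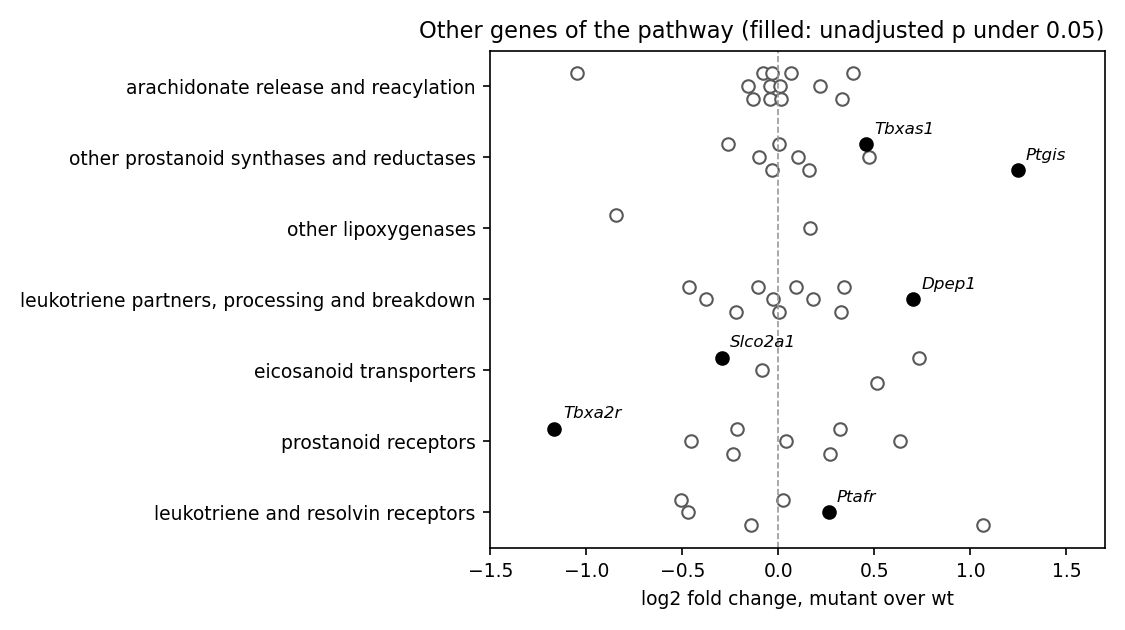
Log2 fold change, mutant over wt, of the 53 tested genes of the 7 further lists; filled points with names have an unadjusted p under 0.05 by edgeR. The 6 named genes fall in 5 of the lists, 4 of them above 0 and 2 below.

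Among prostanoid synthases and reductases 6 of 9 tested genes were positive and 3 negative (median 0.10), with 0 past the adjusted threshold. Ptgis, which encodes prostacyclin synthase, known from endothelial cells, smooth muscle and fibroblasts, was at 16.2, 13.5 and 13.5 CPM in mutants, against 6.54, 3.70 and 7.97 CPM in wt. Every mutant library lay above every wt library, and the log2 fold change was 1.25 ± 0.30 (adjusted p = 0.304 by edgeR and 0.0161 by DESeq2). Of the fibroblast markers 9 of 10 were positive with a median of 0.49. By edgeR 7 of the 10 were higher in mutants with an unadjusted p under 0.05, against 3.51% of all tested genes. None had an adjusted p under 0.05. Gsn, the most abundant of them, gave 2512 ± 412 in mutants against 1979 ± 190 CPM in wt, with groups that overlapped. Of the endothelial markers 10 of 10 were negative (median -0.14). The part of these cells in the Ptgis value was not tested. Tbxas1, thromboxane synthase, was at 60.6, 73.0 and 82.1 CPM in mutants, against 42.4, 60.3 and 54.4 CPM in wt. The nearest libraries of the groups almost touched, and the adjusted p was 0.601 (log2 fold change 0.46 ± 0.17, edgeR). Alveolar macrophages, which are known to express Tbxas1, had 12 of 12 markers positive with a median of 0.44, and their part was not tested. Akr1b3, an aldo-keto reductase that can make a prostaglandin of the F type, was at 21.3 ± 1.89 in mutants against 19.8 ± 2.05 CPM in wt.

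The receptors of these prostanoids were low. Of 8 tested prostanoid receptors 4 were positive and 4 negative (median -0.09), and 0 passed. Tbxa2r, the thromboxane receptor, was at 2.27, 1.36 and 2.46 CPM in mutants, against 3.61, 5.22 and 4.84 CPM in wt. Its groups did not overlap, with a log2 fold change of -1.17 ± 0.39 and an adjusted p of 0.551 by edgeR, and thus stood opposite in sign to Tbxas1. The PGE2 receptors Ptger2 and Ptger4 averaged 19.9 ± 6.25 and 12.03 ± 5.14 CPM in mutants, against 27.2 ± 6.57 and 9.96 ± 0.990 CPM in wt (SD, n = 3 per group), and the prostacyclin receptor Ptgir averaged 8.68 ± 0.749 in mutants against 10.2 ± 1.94 CPM in wt. Of the 4 transporters 2 were positive and 2 negative, and 0 passed: besides Slco2a1, the exporters Abcc4 and Abcc1 averaged 13.5 ± 3.03 and 13.4 ± 4.49 CPM in mutants, against 14.3 ± 3.11 and 9.41 ± 1.71 CPM in wt.

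Of the 11 leukotriene partners, processing and breakdown genes, 6 were positive and 5 negative (median 0.0041), and 0 passed. Cyp4f18, the cytochrome P450 that inactivates LTB4 in mouse neutrophils, was at 1387 ± 53.2 CPM in mutants, against 1415 ± 93.7 CPM in wt (SD, n = 3 per group), above every other gene of its list. Cotl1, an actin-binding protein that also binds 5-lipoxygenase, was at 294 ± 61.9 in mutants against 293 ± 11.7 CPM in wt. In the cysteinyl branch, Ggt5, a gamma-glutamyl transferase that trims LTC4, was at 138, 151 and 139 CPM in mutants, against 176, 160 and 161 CPM in wt. All mutant libraries were below all wt libraries, with a log2 fold change of -0.22 ± 0.10 and an adjusted p of 0.765 by edgeR. Dpep1, a dipeptidase that takes the next step and also serves as a neutrophil adhesion receptor on lung endothelium, was at 41.2, 29.2 and 48.0 CPM in mutants, against 25.03, 21.7 and 26.1 CPM in wt. Its groups did not overlap either, in the opposite direction (log2 fold change 0.70 ± 0.20, adjusted p = 0.428, edgeR).

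Among genes of arachidonate release and reacylation 6 of 13 tested were positive and 7 negative (median -0.03), and 0 passed. Pla2g7, which breaks down platelet-activating factor, was at 1518 ± 52.2 CPM in mutants, against 1555 ± 74.8 CPM in wt, while Lpcat2, which makes that lipid, was at 573 ± 13.5 in mutants against 627 ± 13.2 CPM in wt (SD, n = 3 each), with all mutant libraries below all wt libraries and an adjusted p of 0.872 by edgeR. Mboat7, which puts arachidonate back into phosphatidylinositol, was at 354 ± 11.2 in mutants against 394 ± 35.4 CPM in wt. Its mutant libraries were also all below the wt libraries, the nearest at 366.6 and 367.5 CPM (adjusted p = 0.869, edgeR). Of the other lipoxygenases 2 of 5 were tested, and 0 passed: Alox12, the platelet enzyme, averaged 3.94 ± 1.53 in mutants against 3.52 ± 3.06 CPM in wt, and Aloxe3, an enzyme of skin, 0.281 ± 0.353 in mutants against 0.506 ± 0.570 CPM in wt, while Alox8 had 8 counts in 1 library. Of 6 tested leukotriene and resolvin receptors 3 were positive and 3 negative (median -0.06), and 0 passed. Ptafr, the receptor of platelet-activating factor, was at 731, 898 and 888 CPM in mutants, against 670, 791 and 638 CPM in wt, overlapping, with an adjusted p of 0.733 (log2 fold change 0.26 ± 0.12, edgeR). The LTB4 receptor Ltb4r1 averaged 90.5 ± 8.13 in mutants against 99.9 ± 12.5 CPM in wt and Fpr2, a receptor of formyl peptides and pro-resolving lipids, 59.0 ± 3.92 in mutants against 58.02 ± 13.4 CPM in wt.

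**Figure D5:**
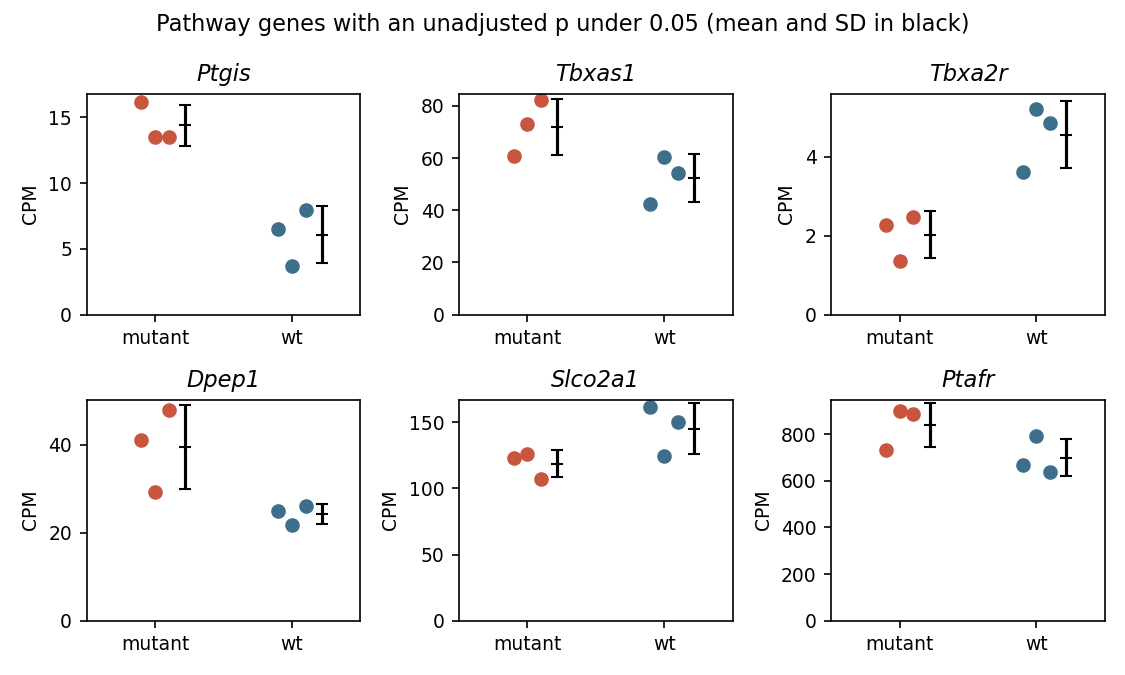
CPM in each library of the 6 pathway genes with an unadjusted p under 0.05 (mutant left, wt right), with group mean and SD in black; axes start at 0. The groups are apart for Ptgis, Tbxas1, Tbxa2r and Dpep1 and overlap for Slco2a1 and Ptafr, and none of the 6 passed the adjusted threshold by edgeR.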

How the data were processed

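Per the labels' protocols, lungs were perfused, minced and digested with liberase, Ly6G-positive cells were sorted, and 2 ng of total RNA and ERCC spike-ins went into SMART-Seq v2 libraries, a protocol that does not mark strand, read from both ends for 151 cycles each. The table holds 0 spike-in genes. The authors deposited raw whole-number counts per gene, 1 column per library. The submitters' processing notes name STAR, featureCounts and build GRCm38. The sources used here do not state versions, annotation release or the strand option.

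Symbols came from GENCODE M21. Genes were kept by filterByExpr (minimum count 10), scaled by TMM and tested in R 4.3.3 with the quasi-likelihood method of edgeR 4.0.16, with a Benjamini-Hochberg threshold of 0.05. Dividing each log2 fold change by the root of its F statistic gave the standard error. The test was also run on simulated counts, with the outcome not reported here. Reads carry no molecular identifiers, so floors of 3 counts cover counting error only. The members and lists were chosen with earlier results of these data known. Genes named are the members, from each other list the 3 highest and up to 3 with an unadjusted p under 0.05, overlapping genes and the 3 most like Ptgs2. Named after their values were seen: Ptgs2os and Ptgs2os2. Markers are named as values of their lists. Library replicate numbers follow accession order. DESeq2 (1.42.0), limma-voom (limma 3.58.1), other scalings, filters and left-out libraries were alternatives.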

Additional observations from a re-analysis of the deposited data

How the results depend on the processing

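The count of the 10 genes called was 0 under all 13 alternatives (smallest adjusted p of a member 0.601), and of 126 member values 113 kept their direction. With all libraries 0 of 10 had an unadjusted p under 0.05 by edgeR. Without mutant replicate 3 that of Ptgs2 was 0.011 (adjusted 0.733, edgeR). Hpgd was at 0.048 without wt replicate 2 (adjusted 0.660) and Alox15 at 0.045 without mutant replicate 1 (adjusted 0.718), both by edgeR. Over all genes, where edgeR called 1 higher and 0 lower, DESeq2's Wald test called 81 and 74, edgeR without a filter on low counts 41 and 29, and edgeR on genes averaging 10 CPM or more 14 and 4. Leaving out 1 library gave 0 to 1 higher (0 without mutant replicate 1, wt replicate 1 or wt replicate 3) and 0 to 1 lower (1 without mutant replicate 2). By limma-voom the log2 fold change of Ltc4s was 0.068 (-0.0093 in edgeR) and that of Alox15 was -1.27 (0.35 in edgeR), and that of Hpgds kept its sign at 1.20 (0.016 in edgeR). With 1 library left out the values ran from -0.33 to 0.51 for Ltc4s, from -6.67 (without mutant replicate 1, which held all mutant counts) to 0.92 for Alox15, from -0.53 to 2.37 for Hpgds, from -0.39 to 0.082 for Ptges, from -0.083 to 0.36 for Ptgs1 and from -0.27 to 0.073 for Ptgs2os. That of Ptgs2 ran from 0.065 to 0.31. A fitted value of a gene with 0 counts in a group depends on the prior count. The difference in Ptgs2 share ran from -0.15 to 0.13 percentage points and was positive when mutant replicate 2 or wt replicate 3 was left out. Among pathway genes Ptgis passed by DESeq2 only (adjusted p 0.0161, against 0.056 to 0.683 in the other alternatives), and these alternatives for pathway genes were chosen after seeing the data. Causes other than the construction of an alternative were not tested. Ltc4s, Alox15, Ptges and Hpgds averaged below 10 CPM and have no value under that filter. Ltc4s, Alox15 and Hpgds had 0 to 56 counts a library and differed between libraries of similar depth, so their values are the least certain. No paired analysis was possible because the labels give the groups no shared replicate numbers.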
